A study of Mus musculus with 9 samples.

Results

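The gastrocnemius, the large superficial muscle of the calf, was compared with the rectus femoris, one of the knee extensors at the front of the thigh. The comparison used 2 of the 9 arrays of a survey of mouse skeletal muscles, with 1 array per muscle. The arrays were taken by their muscle labels, and the pair was chosen, with earlier results of these data known, as lower leg against thigh with a similar range of values. The gastrocnemius RNA and the rectus femoris RNA came from frozen muscle of male C57BL/6J mice aged 12 weeks, untreated as far as the labels say, and the other 7 muscles came from mice of the same strain, sex and age. Those 7 were the soleus and tibialis anterior of the lower leg, the triceps, supraspinatus and trapezius of the forelimb and shoulder, and the masseter and digastric of the head. How many animals stand behind each array, and whether their RNA was pooled, is not stated. The series title names the homeobox gene Hoxa10 and memory of position in muscle, and a calf muscle set against a thigh muscle compares different levels of the same limb.

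Each value is a deposited log2 expression value, so that a difference of 1 is a 2-fold difference. With 1 array per muscle no difference has a replicate check, no p-value is given, and a difference between animals, dissections or arrays cannot be told apart from a difference between muscles. A gene was counted as past the fold where the arrays differed by at least 1 on the log2 scale and the higher of them had a value of at least 5, a floor that 7100 of 22180 genes reached. The gastrocnemius and rectus femoris arrays had a similar, narrow range of values, with an SD over probe sets of 1.92 in the gastrocnemius and 1.95 in the rectus femoris. The triceps was close to both at 1.96, and the other 6 arrays had SDs from 2.03 to 2.08. The labelled tissue was borne out by its markers, since 8 genes of the skeletal muscle fibre, among them Ckm, Acta1 and Ttn, averaged 11.53 in the gastrocnemius and 11.58 in the rectus femoris.

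Skeletal muscle is built from fibres that differ in the isoforms of their contractile proteins. Slow, oxidative fibres carry the slow myosin heavy chain Myh7 with matching light chains and troponins, resist fatigue and burn fat and lactate, while fast fibres carry Myh2, Myh1 or Myh4, of which the Myh2 type is the most oxidative. In mice the soleus is the limb muscle richest in slow fibres, and the gastrocnemius is a mainly fast muscle with an oxidative region deep within it. Slow and fast gene programmes are read from promoters that bind, among others, TEAD factors at MCAT elements, MEF2, and serum response factor at CArG boxes.

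The 5 genes that exceeded the rectus femoris by most in the gastrocnemius were Myh7, Myoz2, Myh2, Myl3 and Tnnc1, and their promoters are shown because these genes carry the largest differences of the comparison. Each sequence is the 250 bases before the most upstream listed start of the gene, from RefSeq in build GRCm38.p6, written 5′ to 3′ on the strand of the gene. They lie at chr14:54994627-54994876 on the minus strand for Myh7, chr3:123034988-123035237 on the minus strand for Myoz2, chr11:67170777-67171026 on the plus strand for Myh2, chr9:110763428-110763677 on the plus strand for Myl3 and chr14:31208062-31208311 on the plus strand for Tnnc1. Capitals mark matches, on either strand, to the MCAT element CATTCC, the MEF2 consensus, the CArG box and the letters TATAAA.
Myh7: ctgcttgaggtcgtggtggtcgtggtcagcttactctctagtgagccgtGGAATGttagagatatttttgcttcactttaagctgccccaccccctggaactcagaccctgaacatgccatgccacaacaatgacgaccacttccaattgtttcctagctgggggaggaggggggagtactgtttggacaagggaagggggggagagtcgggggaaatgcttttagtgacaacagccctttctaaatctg
Myoz2: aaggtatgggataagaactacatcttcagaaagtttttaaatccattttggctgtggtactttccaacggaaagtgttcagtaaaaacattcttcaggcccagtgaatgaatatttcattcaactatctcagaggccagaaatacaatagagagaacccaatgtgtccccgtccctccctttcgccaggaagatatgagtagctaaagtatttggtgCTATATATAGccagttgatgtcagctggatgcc
Myh2: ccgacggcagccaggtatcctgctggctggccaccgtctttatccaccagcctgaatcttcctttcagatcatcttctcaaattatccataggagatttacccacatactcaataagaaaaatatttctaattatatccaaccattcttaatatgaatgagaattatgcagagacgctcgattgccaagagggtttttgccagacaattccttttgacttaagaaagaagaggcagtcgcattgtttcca
Myl3: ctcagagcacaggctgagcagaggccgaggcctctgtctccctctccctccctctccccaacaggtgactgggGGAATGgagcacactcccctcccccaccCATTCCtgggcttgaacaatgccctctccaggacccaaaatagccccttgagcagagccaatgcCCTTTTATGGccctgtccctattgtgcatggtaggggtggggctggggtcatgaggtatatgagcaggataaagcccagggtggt
Tnnc1: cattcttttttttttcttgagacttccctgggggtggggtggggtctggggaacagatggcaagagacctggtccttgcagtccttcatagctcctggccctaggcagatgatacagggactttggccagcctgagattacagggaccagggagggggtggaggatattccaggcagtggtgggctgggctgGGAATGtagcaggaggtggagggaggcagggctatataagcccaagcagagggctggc
The MCAT element stood 201 bases before the start in Myh7, 177 and 149 bases before it in Myl3 and 58 bases before it in Tnnc1. Myoz2 held a MEF2 consensus 33 bases before its start, Myl3 a CArG box 85 bases before its start, and the Myh2 window held none of the searched motifs. No motif overlapped another in these 5 windows. Among 9 slow fibre genes past the fold with a listed promoter, 3 held an MCAT element, against 12.6% of 27025 promoters of the same length. A CArG box was in 2 of the 9, against 1.41% of all promoters, a MEF2 consensus in 1 of the 9, against 3.03%, and TATAAA in 2 of the 9, against 3507 of the 27025 promoters. The E-box CANNTG, which is not marked, was in 9 of the 9, and in 66.1% of all promoters. The whole slow list had 16 genes with a listed promoter. Of these 16, an MCAT element was in 3, a CArG box in 2, a MEF2 consensus in 2, TATAAA in 4 and the E-box in 16. These matches describe the letters of the windows and do not show that a factor binds there.

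Over the 7100 genes above the floor, 33 (0.465%) were past the fold higher in the gastrocnemius and 22 (0.310%) were past the fold lower. The largest of the 33 higher differences were those of Myh7 and Myoz2, and the largest in size among the nameable lower genes were those of Ngp and Mt2. The median difference over these genes was -0.01, and the SD of the differences was 0.31. Across levels the spread narrowed, with an SD of 0.30 for genes averaging between 5 and 7 and 0.12 for the 55 genes averaging over 11. Of those 55 brightest genes 70.9% were lower in the gastrocnemius, with a median difference of -0.05.

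**Figure D1:**
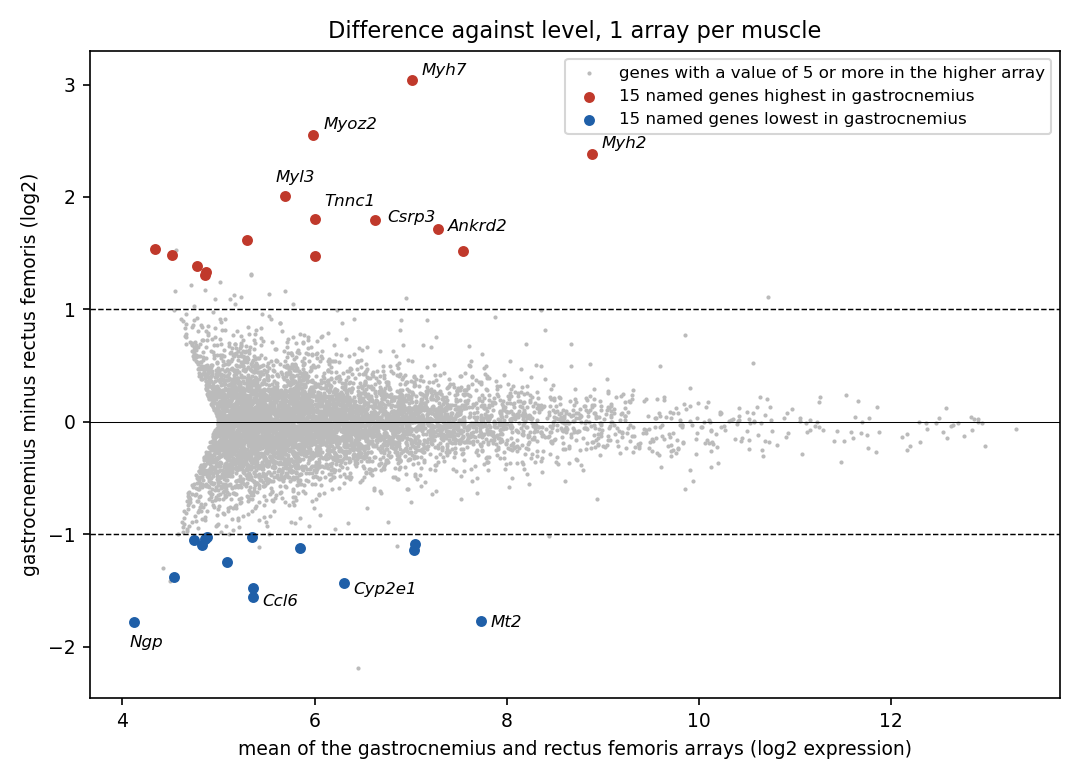
Difference in log2 expression, gastrocnemius minus rectus femoris, on the vertical axis against the mean log2 expression of the 2 arrays on the horizontal axis, for the 7100 genes above the floor. Red points are the 15 named genes highest in the gastrocnemius, up to 3.04 for Myh7, blue points the 15 named genes lowest in it, and dashed lines mark the 2-fold limits. The grey wedge at the left edge is made by the floor itself.

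Of the 36 pairs of arrays, gastrocnemius and rectus femoris had the fewest genes past the fold, 55 or 0.775% of those above the floor. The pair was chosen for its similar range of values, and the part of that range in this rank was not tested. Supraspinatus and tibialis anterior came next with 70 (0.947%). The triceps, whose array has a like range of values, differed from the gastrocnemius in 91 genes and from the rectus femoris in 86. Within the lower leg, the tibialis anterior differed from the gastrocnemius in 814 genes and the soleus differed from it in 1218. The tibialis anterior differed from the rectus femoris in 800 genes and the soleus in 1201, and both are arrays of wider range. Range of values and muscle cannot be told apart in those pairs.

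All 18 genes of the slow fibre list were higher in the gastrocnemius, where 49.6% of all genes were higher and 49.7% lower, and 10 were past the fold. The 14 members above the floor were all higher, where 48.0% of genes above the floor were higher and 51.6% lower, and the 10 past the fold were 71.4% of these 14. The median difference of the 18 was 1.27, against 0.00 over all genes, and ran from 0.22 for Ckmt2 to 3.04 for Myh7. The list averaged 6.41 in the gastrocnemius and 5.12 in the rectus femoris, beside 9.57 in the soleus, 7.05 in the trapezius and 6.08 in the triceps. In whole muscle, more slow fibres and more slow RNA per fibre cannot be told apart. The list was chosen with earlier results of these arrays known, so its direction is a description and no independent evidence.

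Myh7, the slow myosin heavy chain, read 8.53 in the gastrocnemius against 5.49 in the rectus femoris, an 8.22-fold difference. The soleus read 11.62, the trapezius 8.64 and the triceps 7.66, and the tibialis anterior, supraspinatus, masseter and digastric lay between 3.68 and 4.43. The gastrocnemius thus stood below the soleus and trapezius, and the rectus femoris stood above the tibialis anterior, the supraspinatus and both head muscles.

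The ventricular and slow light chain Myl3 read 6.70 in the gastrocnemius against 4.69 in the rectus femoris, with 10.39 in the soleus, 6.09 in the trapezius, 5.88 in the triceps, 4.54 in the tibialis anterior, 4.35 in the supraspinatus, 3.46 in the digastric and 2.71 in the masseter. Tnnc1, the calcium-binding troponin subunit of slow and cardiac muscle, read 6.90 in the gastrocnemius against 5.10 in the rectus femoris, with 10.94 in the soleus and 4.40 to 7.42 in the other 6 arrays. In both genes, as in Myh7, the soleus was the highest array and the tibialis anterior lay below the rectus femoris. Tnni1, the slow inhibitory troponin, read 5.54 in the gastrocnemius against 4.21 in the rectus femoris and 9.89 in the soleus. Myl2, the slow regulatory light chain, read 5.51 in the gastrocnemius against 4.20 in the rectus femoris and 8.87 in the soleus. Atp2a2, the calcium pump of slow and cardiac sarcoplasmic reticulum, read 8.31 in the gastrocnemius against 6.79 in the rectus femoris, 11.62 in the soleus and 6.79 in the tibialis anterior.

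In 4 further slow fibre genes the tibialis anterior lay well above the rectus femoris. Myoz2, which tethers calcineurin at the Z-disc of slow fibres, read 7.26 in the gastrocnemius against 4.71 in the rectus femoris, a value below the floor. The soleus read 11.23, the digastric 9.07, the trapezius 8.53, the tibialis anterior 7.85, the supraspinatus 7.54, the masseter 7.43 and the triceps 6.60, so the rectus femoris was the only array below 6. Csrp3, the muscle LIM protein of the Z-disc, read 7.53 in the gastrocnemius against 5.74 in the rectus femoris, with 6.15 to 10.68 in the other 7 arrays. Ankrd2, a stretch-responsive ankyrin repeat protein bound to titin, read 8.14 in the gastrocnemius against 6.42 in the rectus femoris, with 6.38 in the masseter and 7.36 to 10.84 in the other 6. Fhl1, a LIM-domain protein of muscle, read 6.28 in the gastrocnemius against 5.11 in the rectus femoris, with 6.07 to 8.01 in the other 7. In these 4 genes the tibialis anterior was nearer the gastrocnemius, and in the other 6 slow genes past the fold (Myh7, Myl2, Myl3, Tnni1, Tnnc1 and Atp2a2) it was nearer the rectus femoris.

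The members of the slow list that were not past the fold kept the direction with smaller values. They were Tpm3 at 0.94, Casq2 at 0.78, Tnnt1 at 0.56, Pln at 0.55, Myl6b at 0.47, Myh7b at 0.28 and Ckmt2 at 0.22. Sln, a small inhibitor of the calcium pump, differed by 1.23, with 3.39 in the gastrocnemius and 2.16 in the rectus femoris, both below the floor. A second probe set of Tpm3 went the other way, by -0.72. The soleus was the highest array for 17 of the 18 genes. The gastrocnemius lay above the rectus femoris and below the soleus for 18 of 18, against 27.5% of all genes above the floor. The rectus femoris was the lowest of all 9 arrays for 10. With the gastrocnemius left out, it lay below the 7 others for 32.6% of all genes above the floor.

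**Figure D2:**
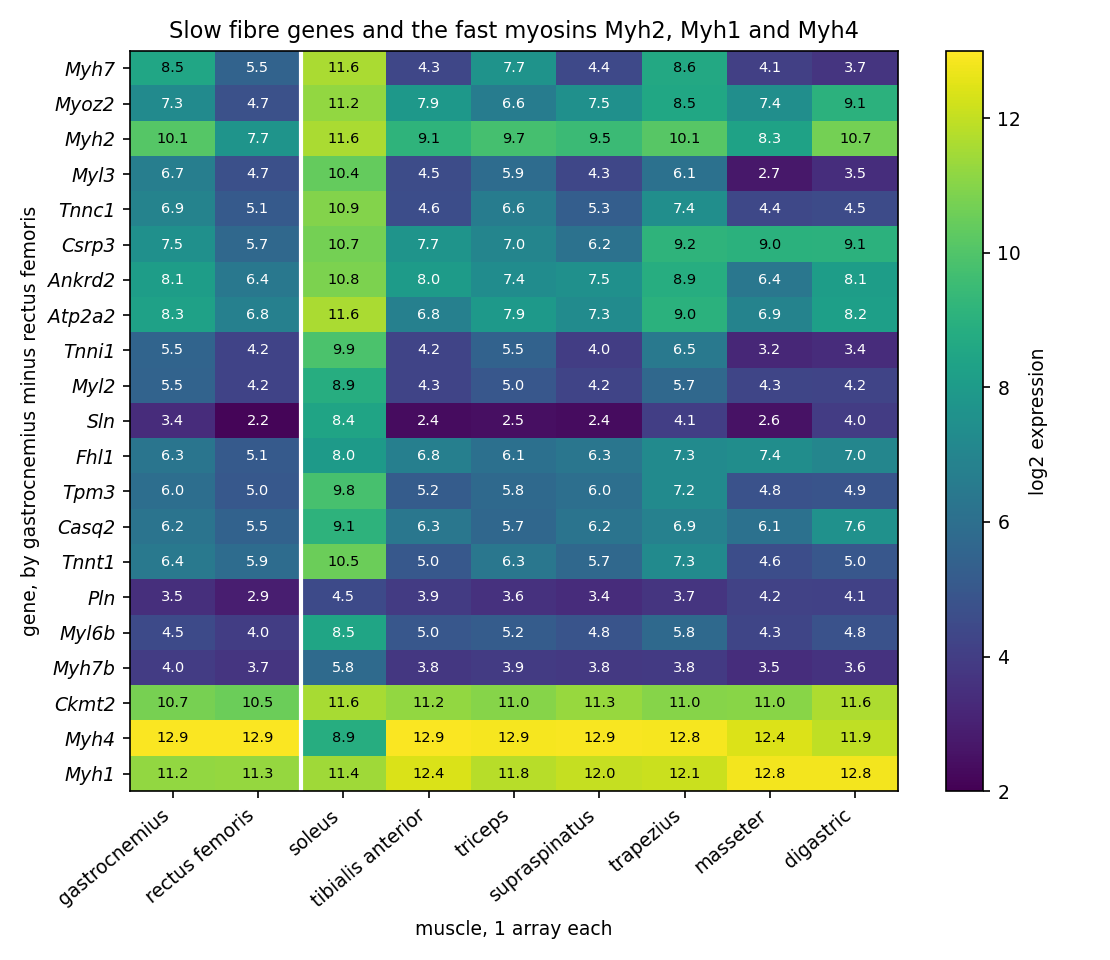
Log2 expression, shown by colour, of the slow fibre genes and of the fast myosins Myh2, Myh1 and Myh4 in each of the 9 muscles (horizontal axis, 1 array each, gastrocnemius and rectus femoris at the left of the white line), with genes on the vertical axis by their difference. Myh7 read 8.53 in the gastrocnemius, 5.49 in the rectus femoris and 11.62 in the soleus, while Myh4 read 12.94 and 12.95 in the gastrocnemius and rectus femoris.

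Apart from Myh2, fast contractile genes differed little between the muscles. Myh2, the heavy chain of the oxidative fast fibres, was at 10.08 in the gastrocnemius against 7.70 in the rectus femoris, a 5.22-fold difference. The other arrays read 11.62 in the soleus, 10.68 in the digastric, 10.15 in the trapezius, 9.74 in the triceps, 9.49 in the supraspinatus, 9.15 in the tibialis anterior and 8.32 in the masseter, so that the rectus femoris was the lowest of the 9. Myh4, the heavy chain of the fastest glycolytic fibres, read 12.94 in the gastrocnemius and 12.95 in the rectus femoris, and Myh1 read 11.22 in the gastrocnemius and 11.27 in the rectus femoris. Of the 18 fast genes 16 were lower in the gastrocnemius, against 51.6% of all genes above the floor, with a median of -0.11. This direction turned when both arrays were scaled to the same SD, where 6 of 18 were lower and the median was 0.05. Pvalb, the calcium buffer of fast fibres, differed by -0.23, and Casq1, the calcium store protein of fast fibres, by -0.21.

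The other genes higher in the gastrocnemius were of mixed function. Smtnl1, a smoothelin-like regulator of contraction, read 6.11 in the gastrocnemius against 4.49 in the rectus femoris, and 6.06 to 9.11 in the other 7 arrays. Egln3, a prolyl hydroxylase that marks the hypoxia factor for degradation, read 6.74 in the gastrocnemius against 5.27 in the rectus femoris, and 6.15 to 10.32 in the other 7. In both genes the rectus femoris was the lowest array. Bdh1, the mitochondrial enzyme of ketone body use, read 5.25 in the gastrocnemius against 3.77 in the rectus femoris, with 7.27 in the soleus and 3.08 in the masseter. Yipf4, a Golgi membrane protein, read 5.46 in the gastrocnemius against 4.08 in the rectus femoris, and 4.47 to 5.64 in the other 7. Gins3, a subunit of the replicative helicase complex, read 5.10 in the gastrocnemius against 3.57 in the rectus femoris, and 4.04 to 4.53 in the other 7, so that the gastrocnemius was the highest and the rectus femoris the lowest of the 9. Car3, a carbonic anhydrase of slow muscle and adipocytes, read 11.27 in the gastrocnemius against 10.16 in the rectus femoris.

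Beyond the 15 largest, 14 further nameable genes had differences from 1.03 to 1.30. The 3 smallest differences of nameable genes past the fold belonged to Tfb2m at 1.05, Ptpn3 at 1.05 and Ifna15 at 1.03. Other probe sets of Tfb2m, with lower values, differed by 0.07 and -0.07. Just short of the fold were Idh2, the mitochondrial isocitrate dehydrogenase, at 0.998 (8.86 in the gastrocnemius and 7.86 in the rectus femoris), Slc16a1, a monocarboxylate carrier, at 0.995, and Sh2d1b2 at 0.994.

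The other 7 arrays show where each of the 2 muscles stood for the 33 higher genes. For 18 of the 33 (54.5%, against 32.6% of all genes above the floor) the rectus femoris lay below all 7 other arrays. For 9 (27.3%, against 11.7%) the gastrocnemius lay above all 7. These genes were selected for a gastrocnemius above the rectus femoris, which by itself moves them to such positions. The counts and their distance from those shares are therefore a description only. The soleus was nearer the gastrocnemius than the rectus femoris for 27 of the 33 (81.8%, against 49.5% of all genes above the floor). The tibialis anterior was nearer the gastrocnemius for 17 (51.5%, against 49.1%), and both lower leg muscles were nearer it for 15 (45.5%, against 36.9%). The triceps, a forelimb muscle, was nearer the gastrocnemius for 23 (69.7%, against 46.5%), so that being nearer the gastrocnemius was not particular to the lower leg. The gastrocnemius lay between rectus femoris and soleus for 23 of the 33 (69.7%, against 27.5%), a position that the selection also favours.

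**Figure D3:**
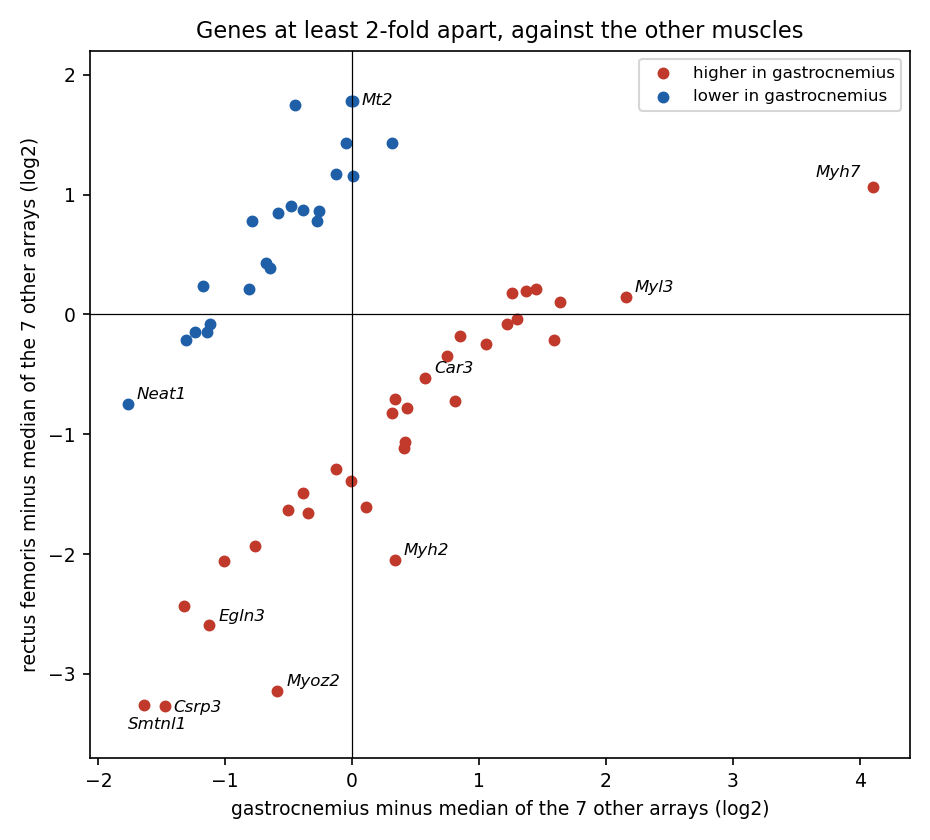
Each of the 55 genes past the fold, with the gastrocnemius minus the median of the 7 other arrays on the horizontal axis and the rectus femoris minus that median on the vertical axis, both in log2. Red points are the 33 genes higher in the gastrocnemius and blue points the 22 lower in it. Myh7 lies far to the right, and Smtnl1, Csrp3 and Myoz2 lie far down, where the rectus femoris is low.

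Genes of oxidative metabolism were more often higher than lower in the gastrocnemius, by small differences, none of them past the fold in the lists used. Beside these lists, 49.6% of all genes and 48.0% of genes above the floor were higher. In the respiratory chain and citrate cycle list 16 of 22 genes were higher in the gastrocnemius. The median of the list was 0.08, with a range from -0.28 to 0.27. The lowest of the 9 arrays was the rectus femoris for 16 and the gastrocnemius for the other 6. Over all genes above the floor, the rectus femoris lay below the 7 other arrays for 32.6% and the gastrocnemius for 33.4%. Each share leaves out the other array of the pair, so it is a looser measure than lowest of 9. In the fatty acid list 13 of 18 were higher with a median of 0.22. Lpl, which releases fatty acids from circulating fat, read 8.81 in the gastrocnemius against 7.99 in the rectus femoris, and Plin5, a lipid droplet protein of oxidative fibres, read 6.38 in the gastrocnemius against 5.67 in the rectus femoris. Fabp4, a carrier of adipocytes and endothelium, went the other way at -0.69. In the list of hypoxia and oxidative regulators 10 of 16 were higher and 6 lower, with a median of 0.09. Of the 12 regulators above the floor 8 were higher and 4 lower. Mb, the oxygen store myoglobin, read 10.23 in the gastrocnemius against 9.46 in the rectus femoris, and the nuclear receptor Ppara read 5.73 in the gastrocnemius against 4.89 in the rectus femoris. The coactivator Ppargc1a differed by 0.54, and its muscle partner Perm1 by 0.51. On the other side were the chaperone Cryab at -0.29, the coactivator Ppargc1b at -0.18, the transcription factor Nrf1 at -0.13, the hypoxia factor Hif1a at -0.12 and the mitochondrial factor Tfam at -0.08.

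Glycolytic genes gave no common direction. Of 18 measured genes 6 were higher and 12 lower in the gastrocnemius with a median of -0.04, and the direction turned with arrays scaled to the same SD, where 3 were lower and the median was 0.10. Ldhb, the lactate dehydrogenase subunit of oxidative tissue, was the highest of the list at 0.90, with 7.35 in the gastrocnemius against 6.45 in the rectus femoris and 9.63 in the soleus. Fbp2, the muscle fructose bisphosphatase, differed by 0.68, with 7.26 in the gastrocnemius against 6.58 in the rectus femoris and 4.32 in the soleus. The lowest was the regulatory enzyme Pfkfb3 at -0.42.

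**Figure D4:**
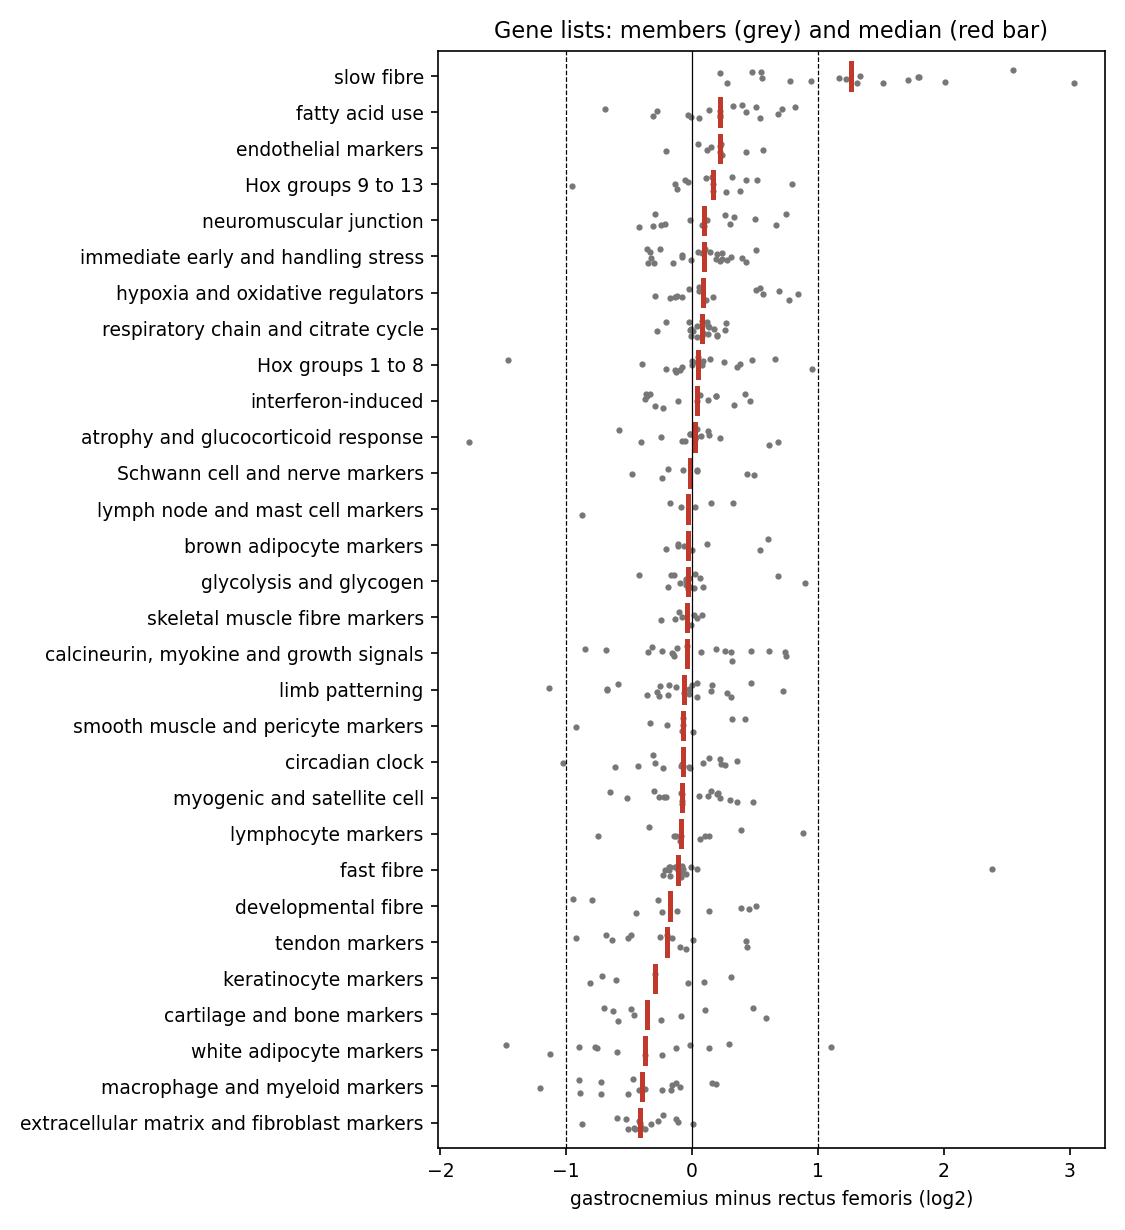
Gene lists on the vertical axis and the difference gastrocnemius minus rectus femoris (log2) on the horizontal axis, with each measured member as a grey point and the median as a red bar. The slow fibre list lies wholly to the right with a median of 1.27, while the matrix and fibroblast list has a median of -0.41 and the myeloid list one of -0.40.

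The genes lower in the gastrocnemius included several that are better known from cells other than fibres. Ngp, a granule protein of neutrophils, read 3.23 in the gastrocnemius against 5.02 in the rectus femoris, with 6.21 in the digastric and 2.85 to 3.74 in the other 6 arrays. Ccl6, a chemokine of macrophages, read 4.57 in the gastrocnemius against 6.14 in the rectus femoris, with 6.82 in the triceps and 4.88 to 5.93 in the other 6. In Ngp the rectus femoris stood out with the digastric, while in Ccl6 the gastrocnemius was the lowest of all arrays. The myeloid marker list moved with these genes: 14 of 16 were lower in the gastrocnemius, against 49.7% of all genes, with a median of -0.40. Of the 16, 9 were above the floor, and all 9 were lower, against 51.6% of genes above the floor. The 16 averaged 4.68 in the gastrocnemius and 5.10 in the rectus femoris, with 5.36 in the triceps, the highest array for 13 of the 16. How often the triceps was highest over all genes was not counted. C1qb, a complement subunit of macrophages, read 5.90 in the gastrocnemius against 6.80 in the rectus femoris. The part of these cells in the result was not tested.

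Another set is known from white fat. Pck1, which supplies glycerol for fat storage in adipocytes, read 4.62 in the gastrocnemius against 6.10 in the rectus femoris, with 9.23 in the trapezius and 3.73 to 6.25 in the other 6 arrays. Cidec, a lipid droplet protein, read 5.29 in the gastrocnemius against 6.41 in the rectus femoris, with 8.32 in the trapezius and 3.81 to 6.03 in the other 6. Both genes were far above either muscle in the trapezius. Cdo1, an enzyme of cysteine breakdown with high levels in fat and liver, read 3.85 in the gastrocnemius against 5.23 in the rectus femoris, with 8.13 in the trapezius. Cyp2e1, a cytochrome P450 of liver and fat, read 5.58 in the gastrocnemius against 7.02 in the rectus femoris, with 8.25 in the trapezius. Of 13 white adipocyte markers 10 were lower in the gastrocnemius, against 49.7% of all genes, with a median of -0.37. The 13 markers averaged 5.88 in the gastrocnemius and 6.25 in the rectus femoris, and the trapezius was the highest array for 10 of the 13. Adipoq, which only fat cells make, was below the floor at 3.58 in the gastrocnemius and 4.34 in the rectus femoris, and Car3 ran against the list. The part of fat cells in the result was not tested.

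Connective tissue genes showed a broad, small difference in the same direction. Of 16 matrix and fibroblast genes, all above the floor, 15 were lower in the gastrocnemius, against 51.6% of all genes above the floor. None of them was past the fold, with a median of -0.41 and averages of 7.96 in the gastrocnemius and 8.34 in the rectus femoris. Postn, a matrix protein of remodelling tissue, read 4.98 in the gastrocnemius against 5.86 in the rectus femoris, and Col3a1, a fibrillar collagen, read 9.56 in the gastrocnemius against 10.15 in the rectus femoris. Fn1, fibronectin, read 8.34 in the gastrocnemius against 8.86 in the rectus femoris. Dcn, a proteoglycan, was the exception at 0.01. Of 13 tendon genes 10 were lower, against 49.7% of all genes, with a median of -0.20. Prg4, the lubricin of joint and tendon surfaces, was past the fold, with 6.46 in the gastrocnemius against 7.60 in the rectus femoris, 7.56 in the triceps and 5.64 to 7.18 in the other 6 arrays. Endothelial markers ran the other way, with 9 of 10 higher in the gastrocnemius, against 49.6% of all genes, and a median of 0.22. The rectus femoris was the lowest of all 9 arrays for 8 of the 10 markers. By a looser measure that leaves out the gastrocnemius, it lay below the 7 others for 32.6% of all genes above the floor. That floor was reached by 8 of the 10 markers. Cdh5, an endothelial cadherin, read 8.43 in the gastrocnemius and 8.28 in the rectus femoris, both below the 8.47 to 9.63 of the other 7.

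**Figure D5:**
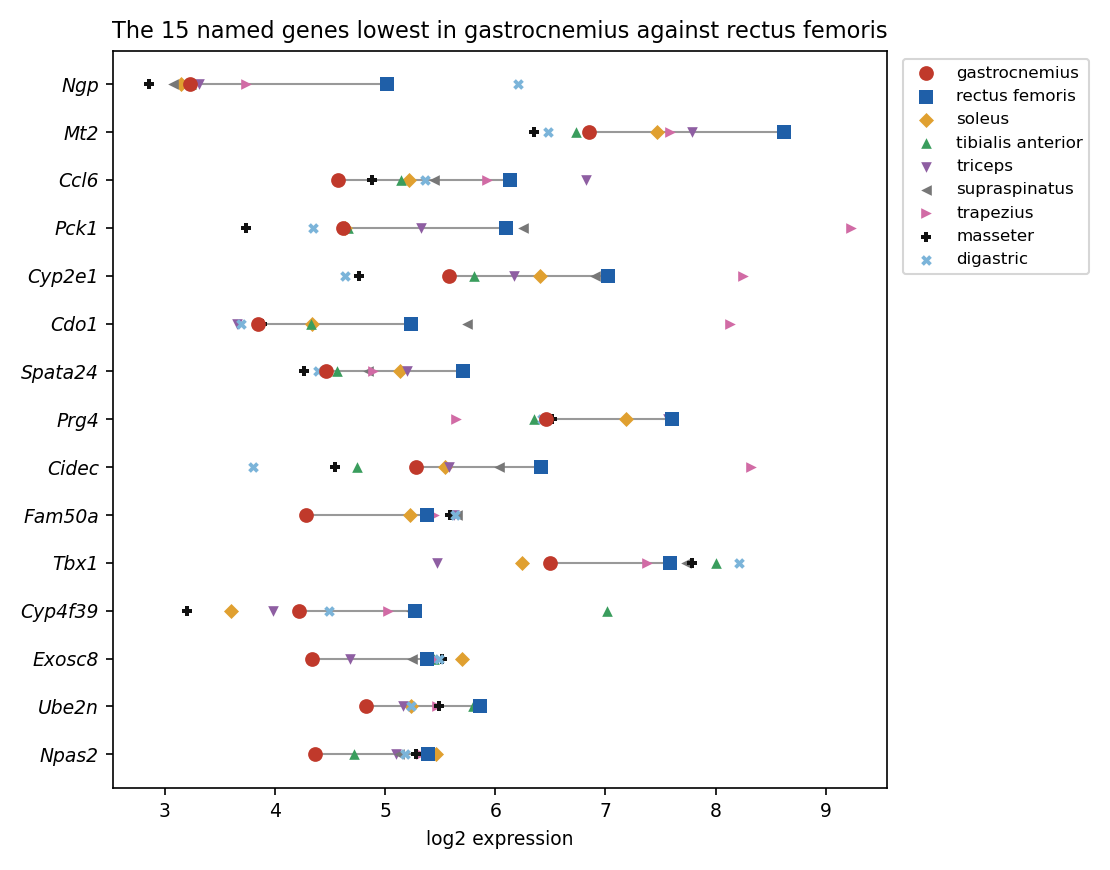
Log2 expression on the horizontal axis of the 15 named genes lowest in the gastrocnemius against the rectus femoris, with genes on the vertical axis and 1 marker per muscle. Pck1, Cdo1 and Cidec reach 9.23, 8.13 and 8.32 in the trapezius, and Ngp reaches 6.21 in the digastric.

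The remaining lower genes belonged to no single group. Mt2, a metallothionein that binds zinc and copper, read 6.85 in the gastrocnemius against 8.62 in the rectus femoris, which was the highest of the 9 arrays; the other 7 lay between 6.35 and 7.79. Its relative Mt1 read 7.73 in the gastrocnemius against 8.31 in the rectus femoris. Tbx1, a T-box factor needed for the muscles of the pharyngeal arches, read 6.50 in the gastrocnemius against 7.58 in the rectus femoris, with 6.24 in the soleus, 5.47 in the triceps and 7.38 to 8.21 in the other 5. Cyp4f39, a fatty acid hydroxylase, read 4.22 in the gastrocnemius against 5.27 in the rectus femoris, with 7.01 in the tibialis anterior and 3.21 to 5.24 in the other 6. Npas2, a clock transcription factor, read 4.36 in the gastrocnemius against 5.39 in the rectus femoris, and Neat1, the long RNA that builds nuclear paraspeckles, read 7.92 in the gastrocnemius against 8.95 in the rectus femoris. The gastrocnemius was the lowest of the 9 arrays for both Npas2 and Neat1, as it was for Exosc8, a subunit of the RNA exosome, Ube2n, a ubiquitin-conjugating enzyme, and Fam50a. Spata24 read 4.46 in the gastrocnemius against 5.71 in the rectus femoris. The lowest difference of all, -2.19, belonged to B230312C02Rik, which the rule for names left out and which is given here after its value was seen.

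Among the 22 lower genes the gastrocnemius lay below all 7 other arrays for 9 (40.9%, against 33.4% of all genes above the floor). The rectus femoris lay above all 7 for 6 (27.3%, against 12.5%). Both are positions that the selection of these genes itself favours. The tibialis anterior was nearer the gastrocnemius for 12 of the 22 (54.5%, against 49.1%), the soleus for 12 (54.5%, against 49.5%), and both for 8 (36.4%, against 36.9%). The 3 smallest differences in size of nameable genes past the fold were those of Neat1 at -1.02, Npas2 at -1.03 and Ube2n at -1.03, and just short of the fold were P2ry6 at -0.99998, Ifi205 at -0.99746 and S1pr3 at -0.995.

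Of the Hox genes, which set position along the body and limb, none was past the fold with the floor. Only 1 of 15 measured genes of groups 9 to 13 was above the floor, Hoxc10, at 6.85 in the gastrocnemius and 6.97 in the rectus femoris, with 7.84 in the tibialis anterior, 7.07 in the soleus and 4.14 in the triceps. Hoxa10 read 4.43 in the gastrocnemius, the highest of the 9 arrays, and 4.17 in the rectus femoris, both below the floor, with 3.26 to 4.08 in the other 7 arrays. The gastrocnemius was the highest array for 7 of these 15 genes, Hoxa10 included, and for 7 of 21 genes of groups 1 to 8. By a looser measure that leaves out the rectus femoris, it lay above the 7 others for 11.7% of all genes above the floor. Most of these Hox genes lay below that floor, and the part of the array's narrow range was not tested. The 15 genes had a median of 0.17, with 10 higher and 5 lower in the gastrocnemius. Hoxc9 was lower, at 4.002 in the gastrocnemius against 4.96 in the rectus femoris, beside 4.89 in the tibialis anterior and 4.59 in the soleus. Hoxc6, at 3.24 in the gastrocnemius against 4.70 in the rectus femoris, had the largest difference of the measured Hox genes in size. It read 4.67 in the soleus, 4.32 in the tibialis anterior, 4.05 in the triceps and 2.47 to 3.07 in the remaining arrays. All these values lay below the floor, and whether they stood above background was not tested. Hoxd8 was higher, at 5.94 in the gastrocnemius against 4.98 in the rectus femoris, 4.99 in the soleus and 4.66 in the tibialis anterior, while the trapezius read 6.36 and the triceps 5.58. In all, 3 of 21 genes of groups 1 to 8 were above the floor.

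Of 23 limb patterning genes 8 were higher and 14 lower in the gastrocnemius, and 4 were above the floor. Tbx15, a T-box factor of fast glycolytic fibres, read 7.62 in the gastrocnemius and 7.97 in the rectus femoris, with 8.69 in the tibialis anterior and 7.36 in the soleus. Pitx1, which specifies the hindlimb, read 4.39 in the gastrocnemius and 4.35 in the rectus femoris, both below the floor. Its highest array was the supraspinatus at 4.70, with 4.08 in the triceps, 3.96 in the tibialis anterior and 3.70 in the soleus. Tbx5, the forelimb factor, read 2.84 in the gastrocnemius and 3.97 in the rectus femoris, below the floor in both.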

How the data were processed

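Biotin-labelled cDNA from total RNA was hybridised to GeneChip Mouse Gene 2.0 ST arrays, 1 per muscle, per the labels' protocols. The authors deposited log2 expression values per probe set, made with GCRMA per the submitters' processing notes, with no version. No genome build of the array is stated in the labels. Of 41345 probe sets, 23521 had 1 gene, 1814 several and 16010 none. Current symbols came from the RefSeq table of GRCm38.p6, matched by Entrez identifier for 23328 probe sets, and 1 probe set per gene, that with the highest mean over the 9 arrays, left 22180 genes.

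Differences are gastrocnemius minus rectus femoris on the deposited values, with no test. Named genes were the 15 with the largest difference in each direction above the floor of 5, list members, Hox genes, and 3 genes on each side of the fold. Predicted genes, small RNAs, olfactory and Rik symbols were left out. The 31 lists, the comparison and the members were chosen with earlier results of these data known. Python 3.11.15, pandas 2.3.3, R 4.3.3 and limma 3.58.1 (normalizations only) were used. Tried beside this were other normalizations (median centring, quantiles, cyclic loess), arrays scaled to the same SD, other floors, a 1.5-fold limit, all probe sets, and a gene's probe sets averaged. The counting procedure was tested on simulated data.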

Additional observations from a re-analysis of the deposited data

Results flagged for a closer look

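Probe sets with no gene named on the array lie outside the comparisons above. Among the 2822 of them with a value of at least 5 in the higher array, 154 were at least 2-fold higher in the gastrocnemius and 181 at least 2-fold lower, together 11.9%. The largest difference of such a probe set above the rectus femoris was 4.66, with 5.87 in the gastrocnemius against 1.21 in the rectus femoris, 4.52 in the tibialis anterior, 3.47 in the soleus, 2.78 in the triceps and 0.72 to 1.73 in the other 4 arrays. The SD of the differences was 0.74 for these probe sets, against 0.31 for genes, and it was not tested what they measure.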

How the results depend on the processing

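The 33 higher genes became 35 with median centring, 47 with quantile normalization, 36 with cyclic loess, 46 with arrays scaled to the same SD and 31 with a gene's probe sets averaged. They became 62 with a floor of 4, 15 with a floor of 6, 233 with no floor, 207 at 1.5-fold and 190 over all probe sets. The 22 lower genes became 37 with quantile normalization, 66 with a floor of 4, 10 with a floor of 6, 156 with no floor, 215 at 1.5-fold and 210 over all probe sets, and 18 to 22 under the other scalings. The count of lower genes with the gastrocnemius below all 7 others became 18 with quantile normalization, against 9. The cause was not tested. All 30 largest named differences kept their sign under 5 alternatives of scaling and probe sets, and 28 to 30 stayed past the fold. The slow fibre list stayed at 18 of 18 higher, with medians from 1.27 to 1.36. Directions turned under scaling to the same SD for the fast fibre list (6 lower), the glycolysis list (3 lower), and the medians of the muscle fibre markers (0.11), of smooth muscle (0.02), of myogenic genes (0.07) and of calcineurin, myokine and growth signals (0.01). With quantile normalization the muscle fibre (0.01), myogenic (0.03) and lymph node and mast cell (0.0045) medians turned too. The lymph node and mast cell median also turned with cyclic loess (0.0143), and the myogenic median with members above the floor only (0.05). No paired analysis was possible because each muscle has 1 array. One array per muscle limits the precision of each value, and whether low values stood above background was not tested.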

Other observations

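Genes of muscle stem cells and of the nerve contact differed little between the muscles. Of 19 myogenic and satellite cell genes 9 were higher and 10 lower in the gastrocnemius, with a median of -0.08 that turned to 0.07 when the arrays were scaled to the same SD and to 0.03 with quantile normalization. Cdh15, a cadherin of satellite cells, read 6.05 in the gastrocnemius against 5.57 in the rectus femoris, and Pax7, their defining factor, read 4.54 in the gastrocnemius against 5.06 in the rectus femoris. Of 15 neuromuscular junction genes 9 were higher and 6 lower, with a median of 0.10. Musk, the receptor kinase that gathers acetylcholine receptors, read 5.81 in the gastrocnemius against 5.06 in the rectus femoris and 7.05 in the soleus.

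Of 19 genes of calcineurin, myokine and growth signals 9 were higher and 10 lower. Fndc5, the precursor of irisin, read 6.69 in the gastrocnemius against 5.95 in the rectus femoris, 9.25 in the soleus and 7.62 in the tibialis anterior. Igfbp5, a binding protein of insulin-like growth factors, read 8.59 in the gastrocnemius against 9.28 in the rectus femoris. Of 17 clock genes 6 were higher and 11 lower with a median of -0.08, where Ciart differed by -0.61 and Cry2 by 0.36. Of 24 immediate early and stress genes 14 were higher and 10 lower, with a median of 0.09, and of 15 interferon-induced genes 8 were higher and 7 lower.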
